A study of Mus musculus with 4 samples.

Results

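The telomerase and shelterin genes followed here are 8 in number: Tert, Terf1, Terf2, Terf2ip, Tinf2, Pot1a, Acd and Rtel1. They were taken by gene symbol, as probe sets that the platform annotation gives to 1 gene alone, and each of the 8 had exactly 1 such probe set among 22180 genes so named. The annotation listed 0 further probe sets that these genes share with others. Each condition was measured on 1 array, and all conditions share the labelled strain Black6-129X1/SvJ, cells pooled from male and female, medium for embryonic stem cells with serum, and ascorbic acid with doxycycline. The 10 day and 38 h arrays hold induced pluripotent stem cells (iPSC), stable clones that came from Sumo2 knockdown fibroblasts; what the 10 days and 38 hours count is not said in the labels. The day 6 arrays hold bulk cultures of reprogrammable mouse embryonic fibroblasts, in which doxycycline switches on the reprogramming factors, on day 6 after its addition. One culture is labelled Sumo2 knockdown and the other Firefly knockdown, which targets an insect luciferase gene that mouse cells lack and serves as the control.

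Telomeres are the repeat arrays that cap chromosome ends. Shelterin is the protein complex that coats them: the products of Terf1 and Terf2 bind the double-stranded repeats, the product of Tinf2 bridges them to the product of Acd, which brings in the single-strand binding protein encoded by Pot1a, and the product of Terf2ip rides on that of Terf2. Telomerase adds repeats; Tert encodes its reverse transcriptase and Terc its template RNA. Rtel1 encodes a helicase that unwinds the looped telomere end. Pluripotent stem cells are known for active telomerase, and telomeres are known to lengthen when mouse fibroblasts are reprogrammed.

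Values are log2 expression as the authors deposited them, so that 1 unit is 2-fold. A gene was counted as measured where it reached the median of the probe sets with 1 gene symbol, 6.64 to 6.67 on the 4 arrays, on at least 1 array compared, and all 8 genes lay above that floor on all 4 arrays. The arrays of a pair correlated at r = 0.985 (iPSC) and 0.987 (day 6) across probe sets, and arrays of different pairs at 0.914 to 0.934. Sumo2 itself read 10.56 in the culture labelled Sumo2 knockdown and 10.65 in the Firefly culture, 93.8% of the control, so this transcript does not show the labelled knockdown and every direction from that culture rests on its label. Of 8 pluripotency markers, 7 were above the floor in each iPSC line, 4 in the culture labelled Sumo2 knockdown and 2 in the Firefly culture. Nanog read 12.50 and 12.05 in the 10 day and 38 h lines, against 9.87 and 7.54 in the Sumo2-labelled and Firefly cultures. Of 8 fibroblast markers, 7 were above the floor in the 10 day line and 8 on each other array, and Thy1 read 8.69 and 8.85 in the 10 day and 38 h lines against 11.23 and 11.71 in the Sumo2-labelled and Firefly cultures. Thy1 had the largest difference of the 8: by the limma fit described below it fell with Col1a2 and Prrx1, 3 in all, 0 rose, and 5 did not pass, among them Col5a1 (log2 difference 0.73), Fn1 (0.19) and Col1a1 (0.071), which stood higher in the lines. The keratinocyte markers found, 3 of 4, were below the floor on all arrays, and of 5 blood markers Ptprc, Adgre1 and Cd14 were below it on all arrays.

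The promoters of 4 genes are printed because their genes span the range of the results: Tinf2 had the largest difference between iPSC and day 6, Tert is the catalytic gene, Pot1a rose by less, and Acd stood nearly level. Each is the RefSeq window from 250 bases before to 50 bases after the gene's start, 5′ to 3′ on the gene's strand, in build GRCm38.p6, where 7 of the 8 genes were listed. Capitals mark GGGCGG (GC box), CCAAT and TGACGTCA (cyclic AMP response element), read on both strands, so that CCGCCC is a GC box on the other strand.
Tert, chr13:73626661-73626960, + strand: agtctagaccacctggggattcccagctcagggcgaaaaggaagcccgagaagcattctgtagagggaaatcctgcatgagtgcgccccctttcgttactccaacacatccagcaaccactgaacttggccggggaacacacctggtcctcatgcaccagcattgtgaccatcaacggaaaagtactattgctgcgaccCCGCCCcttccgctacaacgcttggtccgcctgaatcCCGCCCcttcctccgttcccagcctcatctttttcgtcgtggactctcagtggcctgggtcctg
Tinf2, chr14:55681768-55682067, - strand: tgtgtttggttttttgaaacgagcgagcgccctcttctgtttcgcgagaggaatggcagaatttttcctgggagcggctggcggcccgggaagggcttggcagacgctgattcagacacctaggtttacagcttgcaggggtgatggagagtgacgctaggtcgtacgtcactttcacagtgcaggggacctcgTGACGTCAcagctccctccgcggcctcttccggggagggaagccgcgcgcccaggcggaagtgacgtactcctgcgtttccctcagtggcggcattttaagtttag
Pot1a, chr6:25809169-25809468, - strand: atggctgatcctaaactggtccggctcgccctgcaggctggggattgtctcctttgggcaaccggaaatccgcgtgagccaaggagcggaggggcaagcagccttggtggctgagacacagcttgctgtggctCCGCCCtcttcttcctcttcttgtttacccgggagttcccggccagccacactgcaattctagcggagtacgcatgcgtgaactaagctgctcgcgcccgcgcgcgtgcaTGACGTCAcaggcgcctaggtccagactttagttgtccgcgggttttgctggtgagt
Acd, chr8:105701179-105701478, - strand: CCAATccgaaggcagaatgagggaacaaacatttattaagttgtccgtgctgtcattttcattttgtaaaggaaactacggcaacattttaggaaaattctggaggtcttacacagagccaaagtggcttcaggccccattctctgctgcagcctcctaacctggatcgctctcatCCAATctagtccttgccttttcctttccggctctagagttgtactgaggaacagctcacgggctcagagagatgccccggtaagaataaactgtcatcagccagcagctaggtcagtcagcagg

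In these windows Tert held 2 GC boxes, starting 51 and 14 bases before the gene's start. Pot1a held 1 GC box, and Rtel1, Terf2 and Terf2ip held 1 each in windows not printed; a GC box occurs in 35.7% of 32851 promoter windows of the same length. TGACGTCA, which was added after the windows had been read, began 56 bases before the start of Tinf2 and 7 bases before that of Pot1a, and occurs in 1.79% of the windows. Acd held CCAAT at 2 places, the only one of the 4 printed windows with that motif, which 37.4% of all windows hold. It also had 7 CG dinucleotides and 48.0% G and C, where Tinf2 had 24 and 58.7%; the medians over all windows were 7 and 52.7%. The E-box CACGTG, the octamer ATGCAAAT and TATAAA were searched as well and none of the listed windows held those letters. None of the motifs overlapped one another. These are matches of letters and say nothing of binding.

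The main question for this gene group was how the iPSC lines differ from the day 6 cultures. Tinf2, Terf1, Tert, Pot1a, Rtel1 and Terf2ip rose, here in falling order of size, by 2.45-fold down to 1.48-fold. Terf2 stood higher in both lines without passing the test, and Acd was nearly level. The test was limma on the mean of both iPSC arrays less the mean of both day 6 arrays, adjusted by Benjamini-Hochberg over 12735 measured genes, with 2 arrays a side and a threshold of 0.05. It called 6 of the 8 genes higher and 0 lower, where 29% of all measured genes were called higher and 17.8% lower. Tinf2 and Terf1, 2 of the 8, also rose at least 2-fold, as 14.3% of measured genes did, while 9.12% fell as far. The median log2 difference was 0.72 for the 8 genes and 0.15 for all measured genes. Differences of this size were common: Tinf2 stood at the 90.9 percentile of all differences and Terf1 at 88.9. The arrays of a pair are different conditions, so the spread in the test holds the labelled knockdown and the difference between lines, and the labels do not tell whether the cultures were independent. Both lines came from Sumo2 knockdown fibroblasts, while the day 6 side includes the Firefly control. The labelled knockdown is thus also partly confounded with the difference between the sides, and its part in it was not tested.

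**Figure D1:**
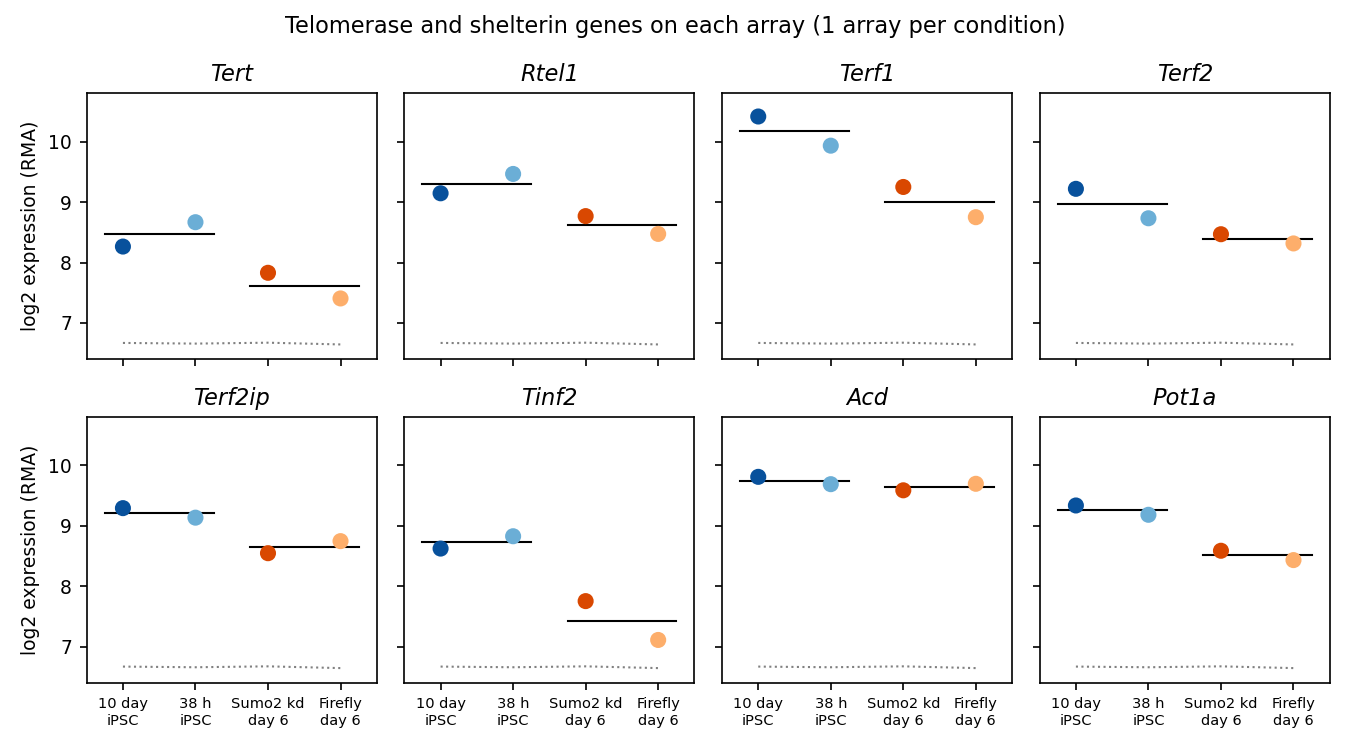
Log2 expression of the 8 genes (vertical axis, RMA scale) on each of the 4 arrays, 1 point per array; black bars are the means of the iPSC pair and of the day 6 pair, and the dotted line is the measuring floor of 6.64 to 6.67. In 7 of the 8 panels both iPSC points lie above both day 6 points, and Acd is nearly level.

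Tert, the reverse transcriptase of telomerase, read 8.26 in the 10 day line and 8.67 in the 38 h line, against 7.83 in the culture labelled Sumo2 knockdown and 7.41 in the Firefly culture. Both lines stood above both cultures, with the 38 h line highest and the Firefly culture lowest. Tert rose 1.80-fold (log2 difference 0.85, SE 0.22, limma adjusted p = 0.0227, 2 arrays a side). Without the Firefly array the difference was 0.64 and no longer passed (limma adjusted p = 0.144), and without the 38 h array it was 0.65 and did not pass either (limma adjusted p = 0.0794).

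Terc, the RNA template that telomerase copies, read 13.13 and 12.90 in the 10 day and 38 h lines against 12.63 and 12.42 in the Sumo2-labelled and Firefly cultures. The order over the arrays differed from that of Tert, with the 10 day line highest. Terc rose 1.41-fold (log2 difference 0.49, SE 0.11, limma adjusted p = 0.0111), and did not pass without the Firefly array (limma adjusted p = 0.0764) or with no intensity trend (limma adjusted p = 0.0612).

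Rtel1, the telomere-loop helicase, read 9.15 and 9.47 in the 10 day and 38 h lines against 8.77 and 8.47 in the Sumo2-labelled and Firefly cultures. As for Tert, the 38 h line was the higher of the lines and the pairs did not overlap. Rtel1 rose 1.61-fold (log2 difference 0.69, SE 0.20, limma adjusted p = 0.0297). It fell short after cyclic loess (limma adjusted p = 0.0717) and in all fits that left out an array except the one without the 10 day line, with limma adjusted p up to 0.152.

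Terf1 encodes the repeat-binding protein TRF1. Its level was 10.42 and 9.94 in the 10 day and 38 h lines, against 9.25 and 8.75 in the Sumo2-labelled and Firefly cultures, with no overlap and about the same step of 0.48 to 0.50 within each pair. Terf1 rose 2.26-fold (log2 difference 1.18, SE 0.24, limma adjusted p = 0.00993), and 3 of the 4 pairs of an iPSC and a day 6 array were 2-fold apart. Without the Firefly array its limma adjusted p was 0.0665, above the threshold.

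Terf2 encodes the related repeat-binding protein TRF2, which guards chromosome ends against fusion. It read 9.22 and 8.73 in the 10 day and 38 h lines against 8.47 and 8.32 in the Sumo2-labelled and Firefly cultures, so that the lines differed from each other by more than the 38 h line did from the nearer culture. The log2 difference of 0.58 (SE 0.21, limma adjusted p = 0.0609) did not pass, and the 95% interval of the fold was 1.05 to 2.13. It passed in 1 of 9 alternatives, the fit without the 38 h array (limma adjusted p = 0.0223).

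Terf2ip encodes RAP1, the partner of TRF2. It read 9.29 and 9.14 in the 10 day and 38 h lines against 8.55 and 8.75 in the Sumo2-labelled and Firefly cultures, and here the Sumo2-labelled culture was the lowest of all arrays. Terf2ip rose 1.48-fold (log2 difference 0.57, SE 0.17, limma adjusted p = 0.0344), but passed in only 3 of 9 alternatives and in 0 of the 4 that left out an array. After cyclic loess its log2 difference was 0.38 (limma adjusted p = 0.123).

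Tinf2 encodes TIN2, the bridge between the double-strand binding proteins and the product of Acd. It read 8.62 and 8.83 in the 10 day and 38 h lines against 7.75 and 7.11 in the Sumo2-labelled and Firefly cultures. The gap of 0.87 between the lower line and the higher culture was the widest among the 8 genes. Tinf2 rose 2.45-fold (log2 difference 1.29, SE 0.24, limma adjusted p = 0.00705), and it passed in all 9 alternatives (limma adjusted p between 0.00649 and 0.0417). Its locus overlaps Gmpr2 in the GRCm38.p6 gene table, and whether the probe set reads any of that gene was not tested.

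Acd encodes TPP1, which brings telomerase to the chromosome end. It read 9.81 and 9.69 in the 10 day and 38 h lines against 9.59 and 9.70 in the Sumo2-labelled and Firefly cultures, the only one of the 8 genes whose pairs overlapped. Its log2 difference was 0.11 (SE 0.15, limma adjusted p = 0.579), and the 95% interval of the fold was 0.834 to 1.39, which leaves room for a small change either way. After cyclic loess the difference was -0.080. Acd overlaps Carmil2 and Pard6a in the gene table.

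Pot1a encodes the single-strand binding protein that in mice has a close relative, the product of Pot1b. It read 9.34 and 9.18 in the 10 day and 38 h lines against 8.59 and 8.43 in the Sumo2-labelled and Firefly cultures, and the step within each pair was 0.15. Pot1a rose 1.68-fold (log2 difference 0.75, SE 0.17, limma adjusted p = 0.0124). It fell short without the Firefly array (limma adjusted p = 0.0748) and, narrowly, without the 10 day array (limma adjusted p = 0.0506). Pot1b read 7.97 and 8.0 in the 10 day and 38 h lines against 7.17 and 6.90 in the Sumo2-labelled and Firefly cultures, and rose 1.93-fold (log2 difference 0.95, SE 0.18, limma adjusted p = 0.00668), but did not pass without the Firefly array (limma adjusted p = 0.0569).

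**Figure D2:**
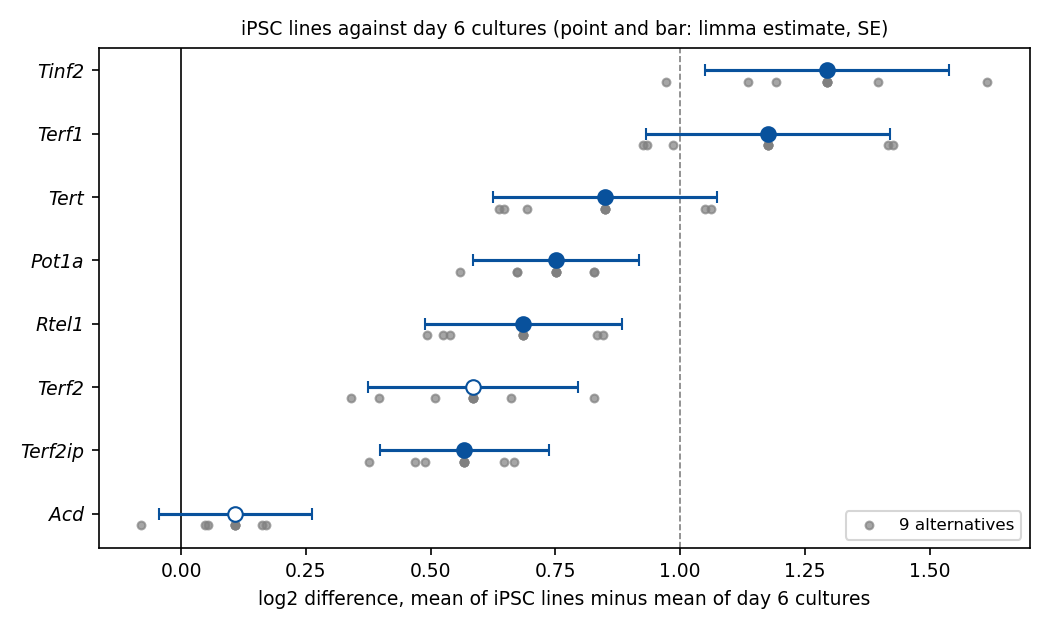
Log2 difference between the mean of the iPSC lines and the mean of the day 6 cultures (horizontal axis) for each gene; large points and bars are the limma estimate and its SE, filled where the adjusted p is under 0.05, grey points are the values under the 9 alternatives, and the dashed line marks 2-fold. Tinf2 and Terf1 lie past 2-fold at 1.29 and 1.18, and Acd is the only gene with an alternative below 0.

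Over the 9 alternatives, Tinf2 passed in 9, Terf1 in 8, Tert and Pot1a in 7 each, Rtel1 in 5, Terf2ip in 3, Terf2 in 1 and Acd in 0. The Firefly array weighed most: without it 1 of the 8 genes passed, namely Tinf2, where 24% of all measured genes still did, and without any other single array 4 passed. The share of all measured genes that passed was 35.1% without the Sumo2-labelled array, 41% without the 38 h array and 39.7% without the 10 day array, against 46.8% in the fit to all 4 arrays. After cyclic loess 4 of the 8 passed as well, Tinf2, Terf1, Tert and Pot1a, where 44.5% of all measured genes did. No filter, no trend, the median over probe sets and values set to the floor left every log2 difference of the 8 genes unchanged. Those settings could alter only the p, so passing in them is no check of the difference itself. Only cyclic loess and leaving out an array could move it. On the log2 scale the iPSC mean stood 0.97 above the Sumo2-labelled culture alone and 1.62 above the Firefly culture alone for Tinf2, 0.93 and 1.43 for Terf1, 0.64 and 1.06 for Tert, 0.54 and 0.83 for Rtel1, and 0.67 and 0.83 for Pot1a. For Terf2 the steps were 0.51 and 0.66, for Acd 0.16 and 0.054, and for Terf2ip 0.67 and 0.47, so that Terf2ip and Acd were the genes whose Firefly value lay nearer to the lines. Both sets of differences use the same iPSC arrays.

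Among the 8 genes, 7 had both lines above both cultures, as did 46.8% of all measured genes. For 6 of them (all but Terf2ip and Acd) the Firefly culture was lowest and the Sumo2-labelled culture came next, an order that 32.2% of measured genes had.

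The second question was how the day 6 cultures differed. None of the 8 genes was 2-fold apart between them, so the differences that follow are small and come from 1 array against 1, with no test. Tinf2 was 1.56-fold higher in the culture labelled Sumo2 knockdown than in the Firefly culture (log2 difference 0.64), Terf1 1.41-fold (0.50), Tert 1.34-fold (0.42) and Rtel1 1.23-fold (0.29). Pot1a (0.15) and Terf2 (0.15) were higher by less, and Acd (-0.11) and Terf2ip (-0.20) were lower. In all, 6 of 8 genes were higher, against 53.7% of 11740 measured genes, with a median log2 difference of 0.22 against 0.025. By size, 0.945% of measured genes reached 2-fold upwards and 0.23% downwards. Tinf2 alone of the 8 genes reached 1.5-fold, as 4.09% of measured genes did upwards and 2.81% downwards. Terc was 0.21 higher.

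**Figure D3:**
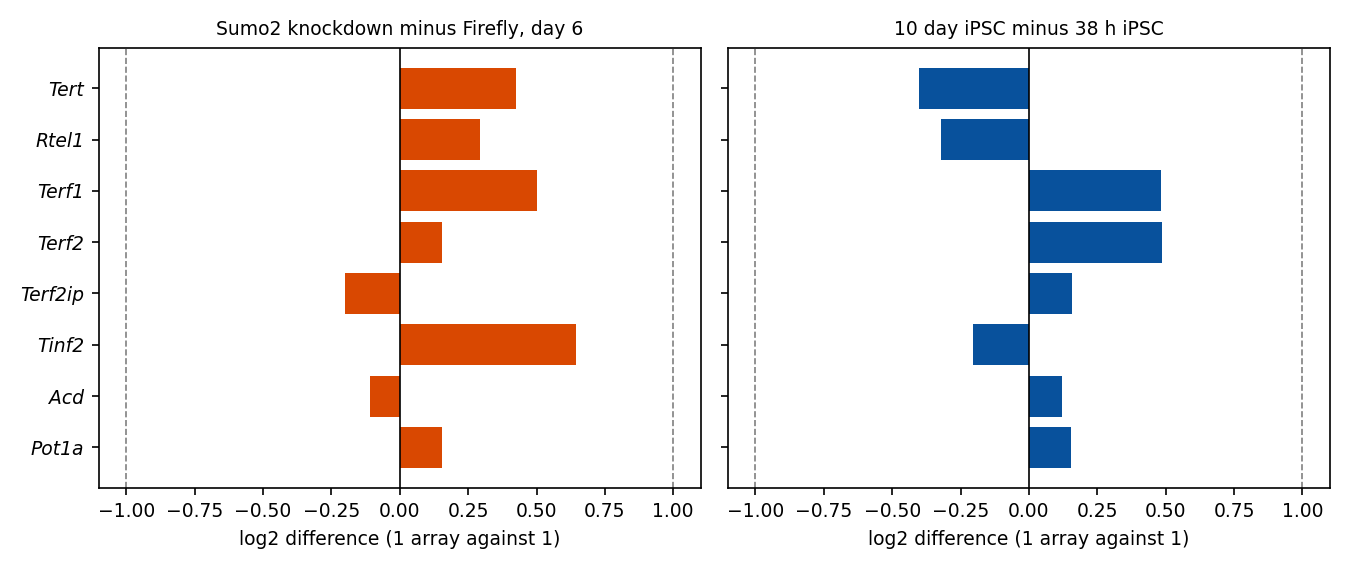
Log2 differences of the 8 genes (horizontal axis), left between the day 6 culture labelled Sumo2 knockdown and the Firefly culture, right between the 10 day and 38 h iPSC lines, with 1 array on each side; dashed lines mark 2-fold. No bar reaches 2-fold, Tinf2 leads on the left at 0.64, and on the right Terf1 and Terf2 point one way and Tert, Rtel1 and Tinf2 the other.

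The third comparison set the iPSC lines against each other, again 1 array against 1 with no test. The genes of the repeat-binding proteins were higher in the 10 day line, Terf2 by 0.49 and Terf1 by 0.48 on the log2 scale, or 1.40-fold each. Tert was lower in it, with a log2 difference of -0.40, as were Rtel1 (-0.32) and Tinf2 (-0.20). Of 11 telomerase assembly genes measured, 4 were higher in the 10 day line, among them Terc (0.22) and Dkc1 (0.27). The median of those 11 was -0.12, so most stood lower in that line, as Tert did. Of the 8 genes, Terf2ip (0.16), Pot1a (0.15) and Acd (0.12) differed by less. In all, 5 of the 8 genes were higher in the 10 day line, as were 47.4% of 11754 measured genes. None of the 8 was 2-fold apart, as 3.22% of measured genes were, or 1.5-fold apart, as 10.5% were. The median was 0.14 for the 8 genes and -0.017 for all measured genes.

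Genes of the wider telomere machinery were grouped by role. The list of telomere chromatin and recombination is an exception to the comparison that follows, for the reason given with it. The counts of each list stand against the same background, 29% of all measured genes called higher and 17.8% lower, and those without the Firefly array against 24% of measured genes called in either direction. Of 11 telomerase assembly genes measured, 8 rose and 0 fell in iPSC relative to day 6 by the same limma fit and threshold, with a median log2 difference of 0.79. Without the Firefly array 2 of the 11 rose. Shq1, a chaperone of dyskerin, rose by 1.83 (SE 0.17), the dyskerin partner gene Gar1 by 1.13 (SE 0.29), and Dkc1, dyskerin itself, by 0.92 (SE 0.20). Without the Firefly array Gar1 stood at 0.71 (limma adjusted p = 0.0678) and Dkc1 at 0.67 (limma adjusted p = 0.0548), both short of the threshold, while Shq1 still passed. Naf1 (0.062), Parn (0.34), a nuclease that matures Terc, and Nhp2 (0.40) did not pass. The Sumo2-labelled culture stood above the Firefly culture for all 11, by a median of 0.33, and 0 reached 2-fold. That was 1 array against 1. Over all measured genes 53.7% stood higher in the Sumo2-labelled culture, the median was 0.025, and 0.945% reached 2-fold upwards.

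The complex of Ctc1, Stn1 and Ten1 (CST) and DNA polymerase alpha with its primase fill in the other strand of the telomere end, and the polymerase also starts ordinary DNA replication. Of 7 such genes measured 5 rose and 1 fell (median 0.71), where 29% of measured genes rose and 17.8% fell, and without the Firefly array 3 rose and 0 fell. The primase gene Prim1 rose by 1.95 (SE 0.23) and the polymerase gene Pola1 by 1.47 (SE 0.20). Within CST the genes parted: Ctc1 rose by 0.71 (SE 0.17), Stn1 at 0.37 (SE 0.20) did not pass, and Ten1 fell (log2 difference -0.70, SE 0.16, limma adjusted p = 0.0128). The difference of Ctc1 was 0.53 without the Firefly array and 0.58 without the 10 day array, and its call was kept in neither fit. Ten1 read 7.50 and 7.41 in the 10 day and 38 h lines against 8.14 and 8.18 in the Sumo2-labelled and Firefly cultures. The pairs did not overlap, but 32.7% of all measured genes likewise had both lines below both cultures. The call of Ten1 was not kept without the Firefly or the Sumo2-labelled array, where its log2 differences were -0.68 and -0.72.

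Of 17 measured partners of shelterin and end-processing genes, 10 rose and 0 fell (median 0.60), against the 29% and 17.8% of measured genes, with the helicase gene Blm at 2.11 (SE 0.30) and the nuclease-helicase gene Dna2 at 2.02 (SE 0.36) first. Without the Firefly array 5 of the 17 rose, not far from the 24% of measured genes that passed. Ercc1 (-0.20) and the telomerase inhibitor gene Pinx1 (-0.12) were lowest and did not pass. Dna2 was also 2-fold higher in the Sumo2-labelled culture than in the Firefly culture (1.15), the one gene of the list to be so.

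Of 9 genes of telomere chromatin and recombination 5 rose and 0 fell (median 0.68), with Zscan4c and Zscan4d among the 5. Because of these 2, the count is, unlike those of the other lists, not set against the shares of all measured genes. Zscan4c and Zscan4d, of a family known in mouse embryonic stem cells for telomere lengthening by recombination, lay below the floor in both day 6 cultures and, counted from that floor, stood higher in the lines by at least 8.78-fold for Zscan4c and at least 5.52-fold for Zscan4d. Both were counted as measured through the iPSC arrays alone, so their place among the 5 that rose is a description and no p is given. Copies of that family are near-identical, so which copy was read is uncertain. Zbtb48 (0.86), whose product limits telomere length, the histone chaperone gene Daxx (0.77) and the histone chaperone gene Asf1a (0.68) rose too. Without the Firefly array these calls were not kept, and the log2 differences were 0.75 for Zbtb48, 0.57 for Daxx and 0.43 for Asf1a. Daxx also failed without the 38 h array (limma adjusted p = 0.0694). Asf1a, at a limma adjusted p of 0.0398 to begin with, also failed after cyclic loess, with no filter, with values set to the floor, and without either iPSC array (limma adjusted p between 0.0530 and 0.108). Atrx (0.64), Asf1b (0.30), Rad52 (0.043) and Hmbox1 (-0.18) did not pass in the fit to all arrays. Of the genes for meiotic telomere attachment only Sun1 was measured, and it rose by 0.63 (SE 0.16), a call lost after cyclic loess and without any one of the arrays other than the 38 h one.

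Of 10 known regulators of Tert transcription measured, 2 rose, 2 fell and 6 did not pass (median -0.11), near the 29% of measured genes called higher and the 17.8% called lower, with 4 falling after cyclic loess and 1 without the Firefly, the Sumo2-labelled or the 10 day array. Mycn lay below the floor in the Firefly culture alone, and with that value set to the floor it rose at least 6.23-fold, and E2f1 rose by 1.31 (SE 0.16). Klf4 fell by 1.09 (SE 0.14) and Myc by 0.97 (SE 0.26). Myc did not pass without the Firefly array (limma adjusted p = 0.115), the Sumo2-labelled array (limma adjusted p = 0.110) or the 10 day array, where its log2 difference was -0.60 (limma adjusted p = 0.0663). Both are reprogramming factors, and whether a probe set read the transgene or the endogenous gene was not tested.

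**Figure D4:**
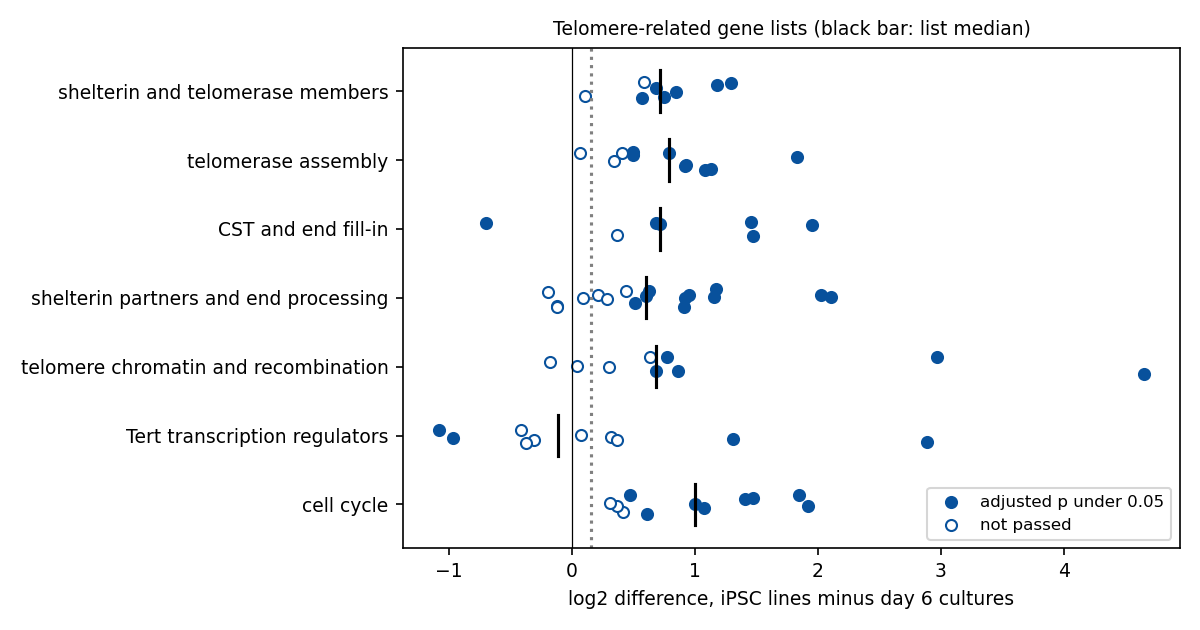
Log2 difference between iPSC lines and day 6 cultures (horizontal axis) for the measured genes of each list, 1 point per gene, filled where the limma adjusted p is under 0.05; black bars are list medians and the dotted line is the median of all measured genes, 0.15. The medians of the telomere lists lie between 0.60 and 0.79, that of the cell cycle list at 1.0 and that of the Tert regulators at -0.11. Zscan4c and Zscan4d are drawn filled and at their values as read, though they counted as measured through the iPSC arrays alone. Their filling is thus a description and no test, and both enter the median of their list.

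Of 11 measured cell cycle genes, 8 rose and 0 fell in iPSC relative to day 6 (median 1.0), where 29% of measured genes rose and 17.8% fell, with Mcm3 (1.92) and Bub1 (1.85) highest and Mki67 (0.37), Ccna2 (0.42) and Pcna (0.31) not passing. Between the day 6 cultures, 1 array against 1, 53.7% of measured genes were higher in the Sumo2-labelled one, with a median of 0.025. All 11 cell cycle genes were higher in it (median 0.43). Their log2 values summed to 126.4 and 127.4 in the 10 day and 38 h lines against 118.5 and 113.4 in the Sumo2-labelled and Firefly cultures. The log2 values of the 8 pluripotency markers summed to 84.7 and 84.0 in the 10 day and 38 h lines. In the Sumo2-labelled and Firefly cultures they summed to 61.8 and 51.6. These sums include values below the floor: Dppa5a on all arrays, Esrrb and Tdgf1 in the Firefly culture, and Sox2, Zfp42 and Dppa4 in both cultures. Sox2, Zfp42 and Dppa4 counted as measured through the iPSC arrays alone. Of other cell types, the macrophage marker Cd68 rose by 1.04. Lyz2 lay below the floor in the Sumo2-labelled culture, and with that value set to the floor it stood 0.95 higher in the lines. They were the 2 measured of 5 on the blood and macrophage list. Values of all 5 summed to 33.0 and 33.2 in the 10 day and 38 h lines. In the Sumo2-labelled and Firefly cultures the sums were 30.6 and 31.4. The sums include Ptprc, Adgre1 and Cd14, which lay below the floor on all arrays. Pecam1, an endothelial marker that mouse pluripotent cells also express, and the neural marker Tubb3 lay below the floor in both cultures. Both counted as measured through the iPSC arrays alone. Counted from the floor, Pecam1 stood at least 3.20 higher in the lines on the log2 scale and Tubb3 at least 2.59 higher. The endothelial marker Tek fell by 2.44 and the neural marker Nes by 1.26. The muscle marker Des rose by 1.69. Myod1, below the floor in both lines, stood at -0.72 as read and -0.48 from the floor. The part of any of these in the telomere gene differences was not tested, and in bulk RNA more cells with a transcript and more transcript per cell cannot be told apart.

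Of the 8 genes, 3 spanned at least 1 log2 unit over the arrays, and for these the genes with the most similar profile were found by Euclidean distance over the 4 arrays, each gene taken relative to its own mean, among 11724 other genes. For Tert they were Nol8, Dus3l and Zfp652, at distances of 0.029, 0.045 and 0.056. For Terf1 they were Nanp, Stmn1 and Tmem107 (0.058, 0.061 and 0.072), and for Tinf2 they were Igsf9, Gart and Agrn (0.045, 0.051 and 0.087). Tmem107 lay below the floor in both day 6 cultures and Nanp in the Firefly culture, so their likeness to Terf1 rests partly on such values. Close matches were plentiful over so few arrays: 126 genes lay within 0.2 of Tert, 33 of Terf1 and 80 of Tinf2.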

How the data were processed

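RNA of 4 mouse cultures was measured on 1 Affymetrix array each. The deposited values are log2 expression per probe set, made by the authors with the RMA method of Affymetrix Expression Console software, as the submitters' processing notes list it, per the labels; versions, settings and the array's build are not given in the sources used here, and base 2 was taken because RMA writes it. RMA equalises the distributions of arrays and shrinks fold differences of probe sets that are dim or very bright. Of 41345 probe sets, 23521 had 1 gene symbol, 1814 several and 16010 none listed. For genes with several probe sets the one with the highest mean was used. Arrays carry no counting depth, and their number limits the precision.

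The iPSC and day 6 pairs were compared with limma 3.58.1 in R 4.3.3 (lmFit, eBayes with intensity trend, 2 residual degrees of freedom) on 12735 measured genes. The other comparisons used fold size alone. The fit was also run on simulated data. The settings and outcome of that run are not given here, so it lends the calls no weight. Named genes were the 8 genes, the 2 highest and 2 lowest of each other list, members of counts of 5 or fewer, and the 3 nearest profiles; Dkc1, Ctc1, Terc, Pot1b, Nanog, Thy1 and Sun1 were named beyond that rule or as examples after their values were seen. The genes, lists and tests were chosen with earlier results of these data known. Alternatives were cyclic loess, no filter, no trend, the median over probe sets, values set to the floor, a 1.5-fold rule and each array left out.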

Additional observations from a re-analysis of the deposited data

How the results depend on the processing

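Of the 8 genes, 4 passed the limma threshold for iPSC against day 6 after cyclic loess, where 44.5% of all measured genes did. With no filter on low values 5 passed, where 29.3% of 22180 genes did. With no intensity trend, the median over probe sets or values set to the floor 6 passed, against 6 as reported. The shares of all measured genes in those settings were 45.8%, 46.9% and 42.3%, against 46.8% as reported. Leaving out 1 array at a time, the fewest passed without the Firefly array, though all such fits had the same number of arrays. Without that array the log2 differences of Tinf2, Terf1 and Tert were 0.97, 0.93 and 0.64, against 1.29, 1.18 and 0.85 as reported. Those of Terf2ip (0.67 against 0.57) and Acd (0.16 against 0.11) moved the other way. The cause was not tested. Cyclic loess moved the median of all measured genes for that comparison to 0.022, where the deposited values gave 0.15, and turned the log2 difference of Acd to -0.080, the only change of direction among the 8 genes. The same alternatives, added for the other lists after the data were seen, gave 4 changes of direction among the other named genes, all of differences near 0: Naf1 was at -0.131 and Rad52 at -0.131 after cyclic loess, and leaving out 1 array put Naf1 between -0.130 and 0.254 and Rad52 between -0.0953 and 0.181. Between the day 6 cultures, 1 gene (Tinf2) was apart under the 1.5-fold rule and 0 under each other setting, and between the iPSC lines 0 were apart under each setting. No paired analysis was possible because the labels carry no replicate numbers and each condition has 1 array. With 1 array per condition the day 6 and the line differences have no error of their own.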
